A study of Mus musculus with 9 samples.

Results

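Eukaryotic translation initiation factors (eIFs) are the proteins that load the initiator tRNA and the small ribosomal subunit onto an mRNA and place them at a start codon. Their genes were picked by name: of 46078 genes in the count table, 62 have a symbol that starts with Eif and a digit from 1 to 6, and 51 remained after leaving out 4 kinases of eIF2 (Eif2ak genes), the Y-linked Eif2s3y and 6 pseudogenes. The 51 genes comprise 10 of the eIF2 group, 14 of eIF3, 12 of eIF4 and 10 of eIF1, eIF5 and eIF6. The others are 4 that encode proteins binding eIF4E, and Eif2c5. The symbol Eif2c5 is an old one of the Argonaute kind, but the gene is annotated as a lincRNA, a long noncoding RNA. It belongs here by name only. Eif2c5, Eif4e1b and Eif4ebp3 had 0 counts in every library, and the other 48 genes all passed the filter on low counts. A count of 0 allows at most 0.370 CPM (a count scaled to a common library size) in any 1 library. Exons of Eif4ebp3 overlap those of AC115631.1 on the same strand over 67.3% of their bases. Reads there can be ambiguous and enter no gene's count, so this bound is uncertain for Eif4ebp3.

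The transcripts came from 9 mouse RNA samples of the strain C57BL/6J, sequenced from the 3′ end. The lymphoma group is 6 samples (34, 53, 56, 70, 72 and 86) of thymic T cell lymphoma cells that MYCN induced, and the CD4 group is 3 samples (1, 2 and 3) of CD4+ T cells taken from spleen. MYCN belongs to the MYC transcription factors, and by its title the series is about MYCN and the chromatin regulator EZH2 in peripheral T cell lymphoma. The promoter that drives MYCN, the ages of the animals, the means of isolating the cells and whether the 6 lymphomas arose independently are not given in the sources used here. If they did not, the p-values rest only on the spread between these samples and may be too small.

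Initiation proceeds in steps that give the genes their order here. eIF2 carries the initiator tRNA as a complex with GTP, and the exchange factor eIF2B reloads eIF2 with GTP after each round. eIF3 is the large scaffold on the small subunit, while eIF1 and eIF1A guide scanning for the start codon and eIF5 and eIF5B act at start codon recognition and subunit joining. The eIF4 proteins bind the mRNA cap (eIF4E), unwind the leader (eIF4A) and bridge both to the ribosome (eIF4G), and the eIF4E-binding proteins compete with eIF4G for eIF4E when mTORC1 does not phosphorylate them. Several of these genes are known as targets of MYC proteins, which bind the E-box hexamer CACGTG.

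Reads counted in genes ranged from 11170704 to 15769679 in lymphoma and from 8099960 to 10808828 in CD4, and initiation factor genes received 144942 to 203760 and 50723 to 76651 of them. Values below are CPM of a library size scaled by TMM, a normalization to the bulk of genes, so they are shares of a library's reads and not transcripts per cell. In such bulk samples, fewer cells of a type and less RNA per cell cannot be told apart. T cell markers were present in both groups: the sum of 8 markers was 1854 to 3458 CPM in lymphoma and 2564 to 2615 CPM in CD4, with 0 of 8 higher and 2 lower in lymphoma. Of these, Cd4 itself was 6.04 to 71.9 CPM in lymphoma against 199 to 263 CPM in CD4, and Cd2 was 2.21-fold lower. The highest sum was that of lymphoma 53, which had 1535 CPM of Thy1 against 501 to 611 CPM in the other lymphomas. The CD4 libraries also held transcripts of other cells. The sum of 10 B cell markers was 1244 to 1557 CPM in CD4 and 9.10 to 15.3 CPM in lymphoma, with all 10 of 10 lower in lymphoma. The 6 plasmacytoid dendritic cell markers summed to 585 to 597 CPM and 48.2 to 101 CPM, also with 6 of 6 lower. Of these, Tcf4 had 248 to 303 CPM in CD4 and 31.0 to 71.1 CPM in lymphoma. Siglech had 60.7 to 69.1 CPM and 0 to 0.367 CPM. Whether the transcripts of this list came from 1 cell type was not tested. Myeloid markers overlapped between the groups in their sum (794 to 1016 CPM in CD4, 68.8 to 2172 CPM in lymphoma). S100a8 and S100a9 made up most of the highest lymphoma sum, at 1035 and 989 CPM in lymphoma 56. Of the 10, 4 were lower in lymphoma without overlap (Csf1r, Itgam, Adgre1 and Ctss), and the other 6 did not pass. Ctss had 269 to 525 CPM in CD4 and 14.3 to 42.3 CPM in lymphoma. Erythroid markers overlapped too (100 to 358 CPM and 14.0 to 888 CPM, with 0 of 7 tested past the threshold). Stromal and thymic epithelial markers summed to 216 to 235 CPM in CD4 and 97.5 to 181 CPM in lymphoma. Pecam1 alone was most of the CD4 sum, at 186 to 199 CPM in CD4 and 59.3 to 81.3 CPM in lymphoma. Of these 11, Krt5, Krt8, Foxn1 and Dcn were at 0 in every CD4 library, and Cdh5 was at 0 in every lymphoma. Of 6 tested, 2 were higher in lymphoma (Dcn and Epcam) and 1 was lower (Pecam1). Sex-linked transcripts differed too, with Xist at 4.66 to 11.3 CPM in lymphoma and 493.1 to 581.7 CPM in CD4. The part of these differences in the results below was not tested, and sex, tissue and group cannot be told apart.

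Initiation factor transcripts were more abundant in the lymphomas. Of the 48 tested genes, 38 were higher, 1 was lower and 9 did not pass an adjusted p of 0.05 (edgeR's quasi-likelihood test, Benjamini-Hochberg over all 15401 tested genes). Over all tested genes 24.7% were higher, 21.9% were lower and 46.6% changed in either direction. A rise of at least 2-fold was found for 24 of the 48, where 17.9% of all genes rose that far. In 34 of the 48 every lymphoma lay above every CD4 library, against 22.6% of all genes, and in 1 every lymphoma lay below, against 22.3%. The median log2 fold change was 1.07 over the 48 genes and 0.04 over all tested genes. Counted together, the 51 genes took 11046, 12035 and 14711 CPM in the lowest, median and highest lymphoma, and 7142, 6086 and 7032 CPM in CD4 1, 2 and 3. The groups did not overlap in this sum, and the mean was 1.84-fold higher in lymphoma. Lymphoma 53 stood apart from the other 5 libraries at many of these genes. Without it 41 of the 48 genes were higher and 1 lower, where 27.7% of all genes were higher, and the median was 0.95.

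**Figure D1:**
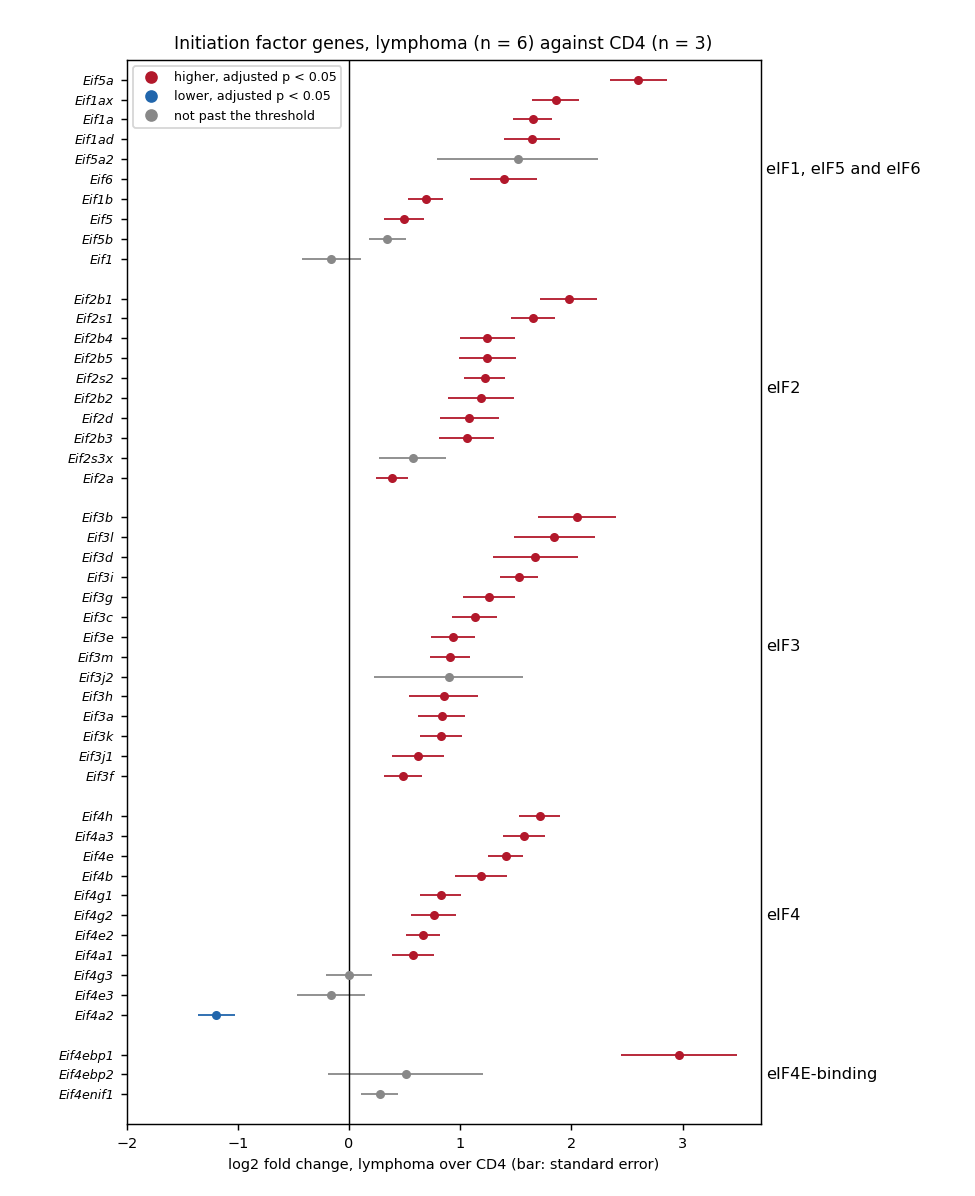
Log2 fold change of lymphoma over CD4 for the 48 tested initiation factor genes, by group; points are edgeR estimates, bars are standard errors, and colour gives the call at an adjusted p of 0.05. All estimates of the eIF2 and eIF3 groups lie above 0, and Eif4a2 is the only gene called lower.

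Promoter sequences from RefSeq (GRCm38.p6), from 250 bases before to 50 after each annotated start, were at hand for 39 of the 51 genes. They were searched for the E-box CACGTG, which reads the same on both strands. It was present at 10 of the 39 genes (25.6%) and at 1127 of 9849 tested genes with a promoter entry (11.4%). By group it was found at 4 of 9 eIF4 genes, 3 of 10 eIF3 genes, 3 of 8 genes of eIF1, eIF5 and eIF6, 0 of 9 eIF2 genes and 0 of 2 eIF4E-binding genes. The median log2 fold change was 0.83 over the 10 tested genes with the hexamer and 1.16 over the 28 tested genes without it. The windows below are shown because they hold the hexamer, in capitals, before an annotated start of 4 genes described in what follows. Each is 60 bases long, lies upstream of the start and outside annotated exons, and reads 5′ to 3′ in the direction of the gene. They lie at chr11:69921428-69921487 (minus strand) for Eif5a, chr16:20672646-20672705 (plus) for Eif4g1, chr11:69672580-69672639 (minus) for Eif4a1 and chr7:108934320-108934379 (plus) for Eif3f, and the hexamer begins 74, 54, 189 and 68 bases before the start. The windows of Eif5a and Eif4g1 lie inside the annotated span of those genes, before an internal start. A match of letters does not show that a protein binds there.
Eif5a: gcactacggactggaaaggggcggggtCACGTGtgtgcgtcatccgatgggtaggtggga
Eif4g1: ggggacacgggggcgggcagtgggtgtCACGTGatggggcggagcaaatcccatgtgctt
Eif4a1: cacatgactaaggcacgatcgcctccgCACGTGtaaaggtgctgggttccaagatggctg
Eif3f: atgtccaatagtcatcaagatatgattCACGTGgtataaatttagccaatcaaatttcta

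The eIF2 group rose nearly as a whole: 9 of its 10 genes were higher, none was lower, and the median log2 fold change was 1.20. Eif2s1 (ENSMUSG00000021116, GRCm38 chr12:78861819-78887010) encodes eIF2 alpha, the subunit that stress kinases phosphorylate. It stood at 35.4, 26.9 and 33.5 CPM in CD4 1, 2 and 3, and at 83.6, 93.2 and 130 CPM in the lowest, median and highest lymphoma. The groups did not overlap, and the log2 fold change was 1.65 (SE 0.200, edgeR adjusted p = 4.56e-05). Eif2s2, the beta subunit, had 222, 236 and 309 CPM in CD4 and 473, 590 and 721 CPM in the lowest, median and highest lymphoma, again with no overlap (log2 fold change 1.22, SE 0.187, edgeR adjusted p = 0.000255).

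The third subunit, eIF2 gamma, is encoded on the X chromosome by Eif2s3x, and males carry a Y-linked copy, Eif2s3y. Eif2s3x had 30.1, 18.8 and 14.8 CPM in CD4, and 18.5, 31.2 and 47.6 CPM in the lowest, median and highest lymphoma, with lymphoma 53 lowest. The groups overlapped, and the difference did not pass (log2 fold change 0.57, 95% interval -0.08 to 1.23, edgeR adjusted p = 0.141). Without lymphoma 53 it was 0.68 with an adjusted p of 0.0401, and without CD4 1 it was 0.93 (0.0430). Eif2s3y had 46.7 to 73.3 CPM in lymphoma and 0.275 to 0.600 CPM in CD4. The sum of both genes was 78.2 to 102 CPM in lymphoma and 15.0 to 30.3 CPM in CD4, 4.12-fold higher in the mean. The Y-linked copy, which the selection by name left out, supplied most of these transcripts in the lymphomas. Sex and group cannot be told apart in this ratio.

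All 5 genes of the exchange factor eIF2B were higher. Eif2b1, the alpha subunit (ENSMUSG00000029388, GRCm38 chr5:124570213-124579131), rose most, from 16.4, 11.6 and 9.9996 CPM in CD4 to 32.2, 51.0 and 60.7 CPM in the lowest, median and highest lymphoma (log2 fold change 1.97, SE 0.256, edgeR adjusted p = 7.67e-05). Eif2b2 had 51.7, 47.2 and 42.9 CPM in CD4. In lymphoma 53 it reached 202 CPM, while the other 5 lymphomas lay between 83.8 and 95.02 CPM, still above CD4. Its log2 fold change was 1.19, and 0.91 without lymphoma 53. Eif2b5, the catalytic epsilon subunit, showed the same order, with 48.7, 41.2 and 50.6 CPM in CD4, 187 CPM in lymphoma 53 and 89.6 to 106 CPM in the others (log2 fold change 1.24, or 1.02 without lymphoma 53). Eif2b4 had 30.0, 39.7 and 48.5 CPM in CD4 and 58.9, 93.0 and 119 CPM in the lowest, median and highest lymphoma. Eif2b3 had 21.6, 32.0 and 26.5 CPM in CD4 and 42.2, 50.4 and 73.8 CPM in the lowest, median and highest lymphoma. For both genes every lymphoma exceeded every CD4 library, with log2 fold changes of 1.24 and 1.06.

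Eif2d and Eif2a encode proteins that can bring initiator tRNA to the ribosome without eIF2. Eif2d rose by 1.08 (SE 0.265, edgeR adjusted p = 0.00554). Eif2a rose by 0.39 (SE 0.144), the smallest rise among the genes called higher, at an edgeR adjusted p of 0.0432. That call was lost in 12 of 19 alternatives.

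The eIF3 group had 13 of its 14 genes higher and none lower, with a median log2 fold change of 0.92. The exception, Eif3j2, had only 6 to 18 counts in CD4 and 8 to 44 in lymphoma (log2 fold change 0.90, edgeR adjusted p = 0.298). The rises were unequal among subunits. The genes for subunits b, g and i, which form a peripheral module of the complex, rose by 2.05, 1.26 and 1.53. The 8 genes of the octameric core (a, c, e, f, h, k, l and m) rose by 0.49 to 1.85 with a median of 0.88. No test between these parts of the complex was made.

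Eif3b (ENSMUSG00000056076, GRCm38 chr5:140419328-140443360), a scaffold subunit with an RNA recognition motif, had the largest rise of the group. It stood at 66.9, 53.5 and 71.2 CPM in CD4, at 471 CPM in lymphoma 53 and at 157 to 333 CPM in the other lymphomas, with no overlap. The log2 fold change was 2.05 (SE 0.347, edgeR adjusted p = 0.000566), and 1.80 without lymphoma 53. Eif3l followed, with 69.5, 53.4 and 59.7 CPM in CD4, 447 CPM in lymphoma 53 and 144 to 224 CPM in the others (log2 fold change 1.85, SE 0.365, and 1.51 without lymphoma 53). Eif3d, a subunit able to bind the cap of some mRNAs, had 89.6, 53.04 and 70.4 CPM in CD4, 465 CPM in lymphoma 53 and 148 to 239 CPM in the others (1.68, SE 0.385, and 1.33 without lymphoma 53). Of the bases in annotated exons of Eif3d, 43.3% overlap Gm17638 on the other strand, and since the strand setting of the counting is not given in the sources used here, its value is uncertain.

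Eif3a, the largest subunit and the backbone of the complex, showed the reverse order among lymphomas. It had 659, 647 and 594 CPM in CD4, 705 CPM in lymphoma 53 and 956 to 1479 CPM in the others. All lymphomas exceeded CD4, and the log2 fold change was 0.83 (SE 0.214, edgeR adjusted p = 0.00728). Eif3j1, a loosely bound subunit, had 186, 161 and 165 CPM in CD4 and 143 CPM in lymphoma 53, below all of them, while the others reached 232 to 322 CPM. Its log2 fold change was 0.62 at an edgeR adjusted p of 0.0480, a call lost in 16 of 19 alternatives. Without lymphoma 53 it was 0.74 with an adjusted p of 0.00111. Exons of Eif3j1 overlap those of other genes over 20.2% of their bases. Eif3f and Eif3h, the paired MPN-domain subunits, had the next smallest edges over the threshold (0.49 and 0.85, edgeR adjusted p 0.0359 and 0.0401). Their calls were lost in 7 and 6 of 19 alternatives. Each lost its call without CD4 2 and under 2 other scalings, RLE and upper quartile. Eif3f also lost it without CD4 3, and Eif3h without CD4 1. Eif3h stood at 960 CPM in lymphoma 53 and at 361 to 483 CPM in the other lymphomas, and its change was 0.56 without lymphoma 53. The remaining genes, Eif3i, Eif3g, Eif3c, Eif3e, Eif3m and Eif3k, rose by 0.83 to 1.53.

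**Figure D2:**
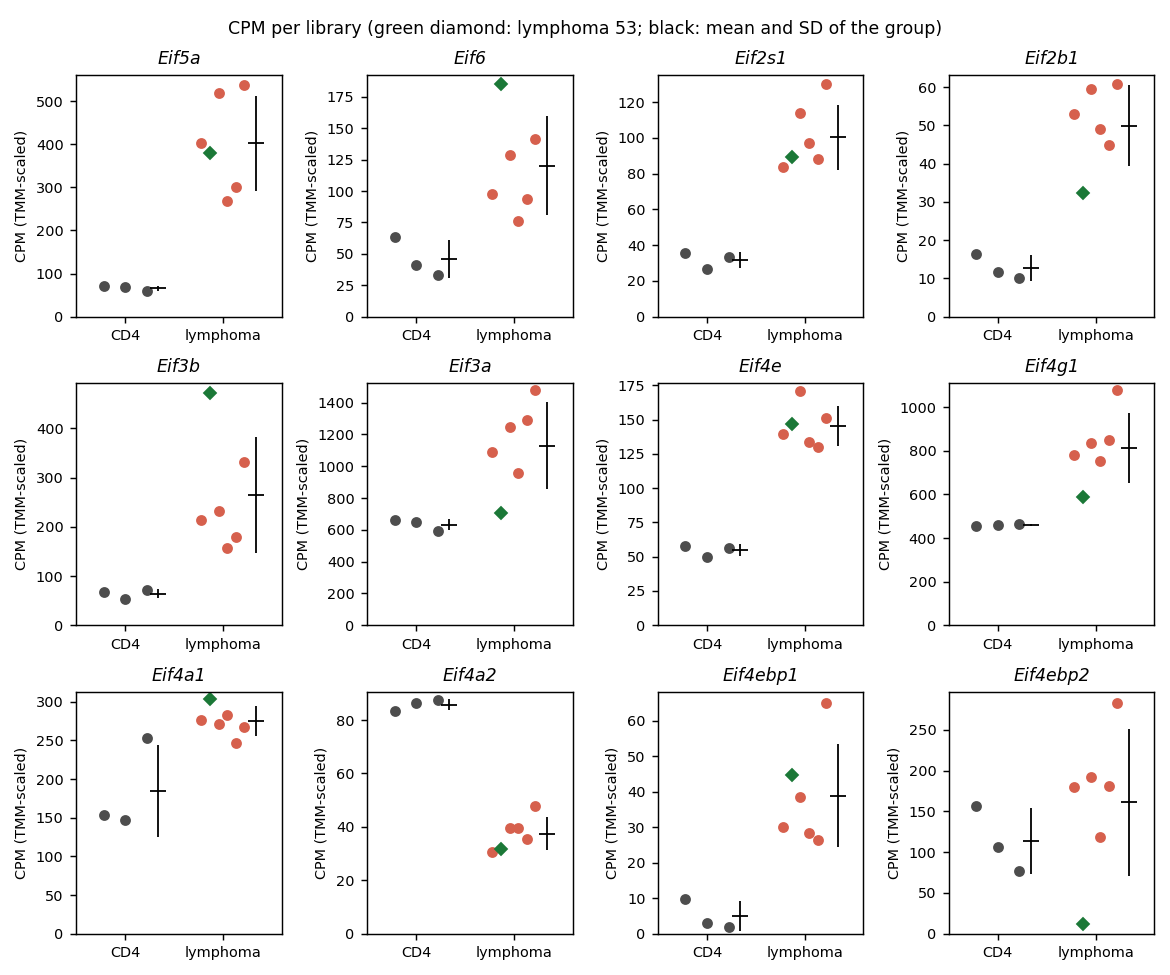
CPM of 12 initiation factor genes in each library (grey: 3 CD4, red: 6 lymphoma, green diamond: lymphoma 53, black: group mean and SD; each vertical axis starts at 0). Eif4a2 is lower in all 6 lymphomas (30.8 to 47.7 CPM) than in CD4 (83.5 to 87.3 CPM), and lymphoma 53 is highest for Eif3b and lowest for Eif3a and Eif4ebp2.

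In the eIF4 group 8 of 11 tested genes were higher, 1 was lower and 2 did not pass, with a median log2 fold change of 0.76. Eif4e (ENSMUSG00000028156, GRCm38 chr3:138526179-138559696) encodes the cap-binding protein of cap-dependent initiation. It had 58.0, 49.7 and 56.2 CPM in CD4 and 130, 143 and 171 CPM in the lowest, median and highest lymphoma. The groups were far apart for the narrow spread within each, and the log2 fold change was 1.41 (SE 0.157, edgeR adjusted p = 2.50e-05), with 0.07 log2 units between lymphoma 53 and the median of the other lymphomas. Its relatives differed in response. Eif4e2, which binds caps without joining eIF4G and represses its targets, rose by 0.67 (edgeR adjusted p = 0.00361). Eif4e3 had 31.1, 37.6 and 40.7 CPM in CD4 and 18.2, 28.9 and 51.4 CPM in the lowest, median and highest lymphoma, which spanned the CD4 range (log2 fold change -0.16, 95% interval -0.83 to 0.50, edgeR adjusted p = 0.698). Exons of Eif4e3 overlap those of Gm20696 on the same strand over 14.8% of their bases, so its level is uncertain.

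The helicase genes went in opposite directions. Eif4a1 (ENSMUSG00000059796, GRCm38 chr11:69666936-69672423), the main RNA helicase of cap-dependent initiation, had 154, 147 and 253 CPM in CD4 and 246, 274 and 304 CPM in the lowest, median and highest lymphoma. CD4 3 overlapped the lymphomas, and the rise of 0.57 on the log2 scale (SE 0.186, adjusted p = 0.0242 by edgeR) lost its call without CD4 1 (0.09545) or CD4 2 (0.116). Eif4a2 (ENSMUSG00000022884, GRCm38 chr16:23107444-23114136), a close paralogue of Eif4a1, was the only initiation factor gene called lower. It had 83.5, 86.5 and 87.3 CPM in CD4 and 30.8, 37.5 and 47.7 CPM in the lowest, median and highest lymphoma. Every lymphoma lay below every CD4 library, and Eif4a2 was 2.29-fold lower (log2 fold change -1.19, SE 0.166, edgeR adjusted p = 0.000129). Exons of Eif4a2 overlap those of other genes over 13.3% of their bases, among them Rfc4 on the other strand and several small RNAs, so with the strand setting unknown its level is uncertain too. The log2 ratio of Eif4a1 to Eif4a2 within a library was 0.89, 0.77 and 1.53 in CD4 and 2.49 to 3.26 in lymphoma. Its mean was 1.83 higher in lymphoma, a 3.55-fold shift (exact two-sided permutation p = 0.0238, the smallest that 6 against 3 libraries allow, and 0.0317 adjusted over 4 ratios). Without any 1 CD4 library the exact test cannot go below 0.0714, and the ratio did not pass there, nor did those of Eif4ebp1 to Eif4ebp2 and Eif4e to Eif4ebp1 described below. Reads that align to several places are in no gene's count, so both paralogues, which have near-identical stretches and processed pseudogenes, may be undercounted. Such reads were 16.1 to 18.6% in lymphoma and 11.6 to 14.0% in CD4, so the undercount may differ between groups. Its part in the ratio was not tested. Eif4a3, the third helicase by name and a core part of the exon junction complex, rose by 1.57 (edgeR adjusted p = 4.25e-05).

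Cofactors of the helicase rose as well. Eif4h had the largest rise of the eIF4 group, from 97.8, 77.8 and 83.3 CPM in CD4 to 242, 259 and 344 CPM in the lowest, median and highest lymphoma (log2 fold change 1.71, SE 0.184, edgeR adjusted p = 1.90e-05). Eif4b had 124, 132 and 111 CPM in CD4 and 199, 268 and 410 CPM in the lowest, median and highest lymphoma (log2 fold change 1.18, SE 0.233, edgeR adjusted p = 0.00141). Every lymphoma exceeded every CD4 library at both genes, and lymphoma 53 was the highest at both.

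The scaffold genes split. Eif4g1 (ENSMUSG00000045983, GRCm38 chr16:20668313-20692884), the main scaffold of the cap complex, had 456, 459 and 466.4 CPM in CD4 and 587, 809 and 1079 CPM in the lowest, median and highest lymphoma, without overlap (log2 fold change 0.82, SE 0.181, edgeR adjusted p = 0.00285). Eif4g2 (DAP5), which lacks the eIF4E-binding region, had 437, 325 and 424 CPM in CD4 and 645 to 827 CPM in 5 lymphomas, while lymphoma 53 at 434 CPM fell inside the CD4 range (log2 fold change 0.76, SE 0.200, edgeR adjusted p = 0.00840). Eif4g3, a second full-length scaffold, had 294, 299 and 292 CPM in CD4 and 171, 294 and 372 CPM in the lowest, median and highest lymphoma. Its log2 fold change was -0.0017 with a 95% interval of -0.46 to 0.45 (edgeR adjusted p = 0.996). The log2 ratio of Eif4g1 to Eif4g2 was 0.06, 0.50 and 0.14 in CD4 and 0.04 to 0.44 in lymphoma, with a mean difference of 0.05 (exact two-sided permutation p = 0.738, also after adjustment).

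Of the genes for eIF4E-binding proteins, 1 of 3 tested was higher, and without lymphoma 53 it was 2 of 3. Eif4ebp1 (ENSMUSG00000031490, GRCm38 chr8:27260329-27276674), the repressor that mTORC1 phosphorylation releases from eIF4E, had the largest rise of all 48 genes. It stood at 9.83, 3.0 and 2.02 CPM in CD4 (103, 25 and 22 counts) and at 26.5, 34.3 and 65.0 CPM in the lowest, median and highest lymphoma. Every lymphoma exceeded CD4 1, the highest control, and the log2 fold change was 2.97 (SE 0.520, edgeR adjusted p = 0.000744). Leaving out CD4 1 raised it to 3.97, and all 19 alternatives kept the call.

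Eif4ebp2, a second repressor of the same family, was the gene at which lymphoma 53 departed most. Lymphoma 53 had 11.6 CPM, the other lymphomas 118 to 283 CPM and CD4 156, 107 and 76.4 CPM. The difference between groups did not pass (log2 fold change 0.51, 95% interval -1.06 to 2.08, edgeR adjusted p = 0.588), and without lymphoma 53 it was 0.75 with an adjusted p of 0.0438. The log2 ratio of Eif4ebp1 to Eif4ebp2 was -3.99, -5.15 and -5.24 in CD4, -2.77 to -2.05 in 5 lymphomas and 1.95 in lymphoma 53. All lymphomas lay above CD4, and the mean was 3.15 higher (exact two-sided permutation p = 0.0238, 0.0317 adjusted over 4 ratios). In turn the log2 ratio of Eif4e to Eif4ebp1 was 2.56, 4.05 and 4.80 in CD4 and 1.21 to 2.30 in lymphoma. The mean ratio fell by 1.84, with the same exact permutation p and adjusted value. Eif4enif1, which carries eIF4E into the nucleus and to processing bodies, changed by 0.27 (95% interval -0.09 to 0.63, edgeR adjusted p = 0.199).

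**Figure D3:**
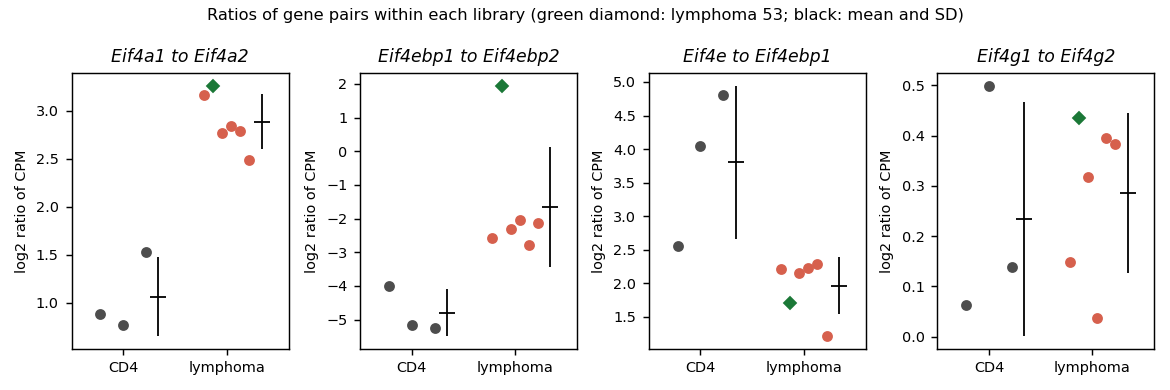
Log2 ratio of CPM for 4 gene pairs within each library (grey: CD4, red: lymphoma, green diamond: lymphoma 53, black: group mean and SD; the vertical axes do not start at 0). The groups are apart for the first 3 pairs and overlap for Eif4g1 to Eif4g2, and lymphoma 53 stands at 1.95 for Eif4ebp1 to Eif4ebp2.

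Among eIF1, eIF5 and eIF6 genes, 7 of 10 were higher and none lower, with a median log2 fold change of 1.45. Eif5a (ENSMUSG00000078812, GRCm38 chr11:69916714-69921958) encodes a factor that now counts mainly as an elongation and termination factor and is active only with the modified lysine hypusine. It had 71.2, 68.0 and 59.4 CPM in CD4 and 269, 392 and 538 CPM in the lowest, median and highest lymphoma, a 6.07-fold rise with no overlap (log2 fold change 2.60, SE 0.256, edgeR adjusted p = 1.03e-05). Of the pair of enzymes that make hypusine, Dohh rose by 1.57 (edgeR adjusted p = 8.97e-05), from 13.8 to 18.5 CPM in CD4 to 37.3 to 56.4 CPM in lymphoma, whereas Dhps changed by -0.16 (0.512). The paralogue Eif5a2 was low in every library, at 0.191, 3.0 and 1.28 CPM in CD4 and 1.55, 4.31 and 6.06 CPM in the lowest, median and highest lymphoma (log2 fold change 1.51, 95% interval -0.06 to 3.09, edgeR adjusted p = 0.105). It passed without lymphoma 53 (0.0473) and without CD4 2, where the change was 2.51 (0.0349).

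The scanning factors of the eIF1A kind rose together. Eif1ax on the X chromosome had 67.7, 46.6 and 45.0 CPM in CD4 and 152, 188 and 232 CPM in the lowest, median and highest lymphoma (log2 fold change 1.86, SE 0.211, edgeR adjusted p = 2.85e-05). Its autosomal counterpart Eif1a had 36.5, 30.2 and 40.5 CPM in CD4 and 97.3, 112 and 132 CPM in the lowest, median and highest lymphoma (1.65, SE 0.174, edgeR adjusted p = 1.71e-05). Eif1ad, which holds an eIF1A-like domain and overlaps Banf1 over 15.3% of its exon bases, rose by 1.64. None of these 3 genes overlapped between groups. Eif1, the gatekeeper of start codon choice, had 278, 192 and 523 CPM in CD4 and 261, 275 and 391 CPM in the lowest, median and highest lymphoma. The CD4 libraries spanned the lymphomas, and its change of -0.16 (95% interval -0.73 to 0.42, edgeR adjusted p = 0.655) became 0.34 without CD4 3. Its close relative Eif1b rose by 0.69 (edgeR adjusted p = 0.00418).

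Eif5, the activator of GTP hydrolysis by eIF2, rose by 0.50 at an edgeR adjusted p of 0.0379, with lymphoma 53 (403 CPM) inside the CD4 range of 313 to 414 CPM, and the call was lost in 11 of 19 alternatives. Eif5b, the GTPase of subunit joining, had 624, 577 and 504 CPM in CD4 and 554, 734 and 898 CPM in the lowest, median and highest lymphoma, with overlap and no call (log2 fold change 0.34, 95% interval -0.02 to 0.71, edgeR adjusted p = 0.114). Without lymphoma 70 it was 0.45 with an adjusted p of 0.0363, and 16.8% of the exon bases of Eif5b overlap Rev1 on the other strand. Eif6, which keeps free large subunits from joining and serves in their assembly, rose from 63.2, 41.4 and 33.2 CPM in CD4 to 76.0, 113 and 185 CPM in the lowest, median and highest lymphoma (log2 fold change 1.39, SE 0.305, edgeR adjusted p = 0.00284).

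The plot of values by library below sets the 9 libraries side by side. Lymphoma 53 was the highest or lowest of the 6 lymphomas at 31 of the 48 genes (64.6%, against 63.8% of all tested genes), highest at 18 and lowest at 13. Lymphoma 86 was highest at 23 and lowest at none, and it was at an extreme in 47.9% of these genes against 33.7% of all tested genes. Lymphomas 70 and 72 were lowest at 15 and 16 of the 48 genes, and at 1838 and 2177 of all 15401 tested genes. The median SD of log2(CPM + 0.5) among lymphomas was 0.32 over the 48 genes and 0.43 over all tested genes, and 0.21 and 0.32 without lymphoma 53. Lymphoma 53 also had the fewest reads in genes of the lymphomas, the largest share of unaligned reads (18.8%, against 11.6 to 14.8% in the other 5) and the largest share of ambiguous reads (5.07%). The part of these in its values was not tested.

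**Figure D4:**
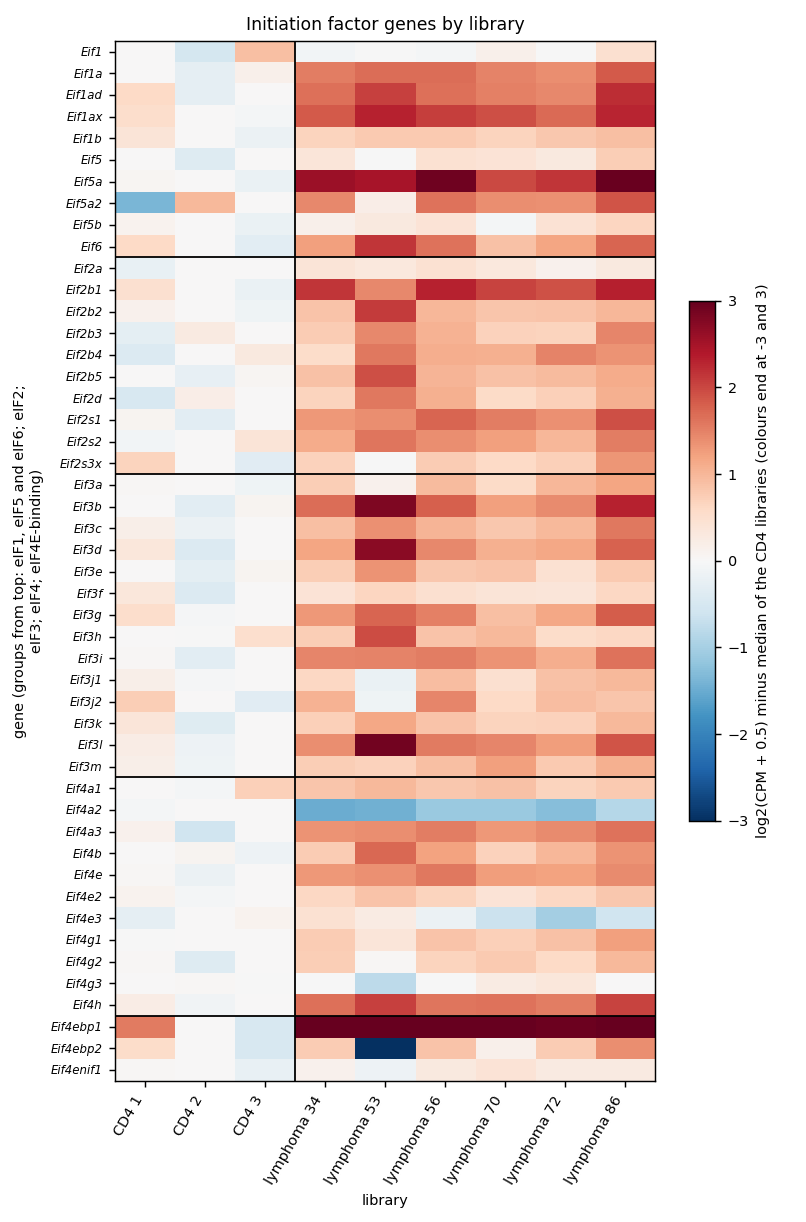
Log2(CPM + 0.5) of the 48 tested initiation factor genes in each library, minus the median of the 3 CD4 libraries (red higher, blue lower, colours end at 3 and -3). Red fills most of the 6 lymphoma columns, the Eif4a2 row is blue in all of them, the Eif4ebp1 row is dark red in all of them, and the column of lymphoma 53 shows Eif4ebp2 in dark blue.

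Genes that act with or on initiation factors were taken from lists written from general knowledge, and their counts are read against the 24.7% of all tested genes that were higher and the 21.9% that were lower. Of 14 partners of initiation, 7 were higher and 3 lower (median log2 fold change 0.42). Pabpc4, a poly(A)-binding protein, rose most (2.58, SE 0.285, edgeR adjusted p = 2.42e-05), from 124 to 180 CPM in CD4 to 655 to 1303 CPM in lymphoma. Pdcd4, which inhibits the eIF4A helicase, fell most, from 247 to 293 CPM in CD4 to 35.1 to 121 CPM in lymphoma (log2 fold change -1.60, SE 0.296, edgeR adjusted p = 0.00101). Of 11 genes of the mTORC1 and MNK kinases, 3 were higher and 2 lower, shares close to those over all tested genes, with a median of 0.36. Rheb, the GTPase that activates mTORC1, rose by 1.40 (edgeR adjusted p = 0.000292), and Mknk1, a kinase of eIF4E, changed by -0.96 (0.00103).

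The 4 kinases of eIF2 alpha did not pass the threshold in either direction, with log2 fold changes of -0.12 for Eif2ak1, -0.20 for Eif2ak2, -0.06 for Eif2ak3 and 0.29 for Eif2ak4 (edgeR adjusted p 0.520, 0.488, 0.917 and 0.251). They stood in a list of 11 eIF2 kinases, phosphatase subunits and stress targets, of which 2 were higher and 2 lower, again no more than over all tested genes. Ppp1r15a (GADD34), the inducible phosphatase subunit for eIF2 alpha, fell most (log2 fold change -4.27, SE 0.483, edgeR adjusted p = 5.12e-05), from 45.8, 70.9 and 269 CPM in CD4 1, 2 and 3 to 4.37 to 9.53 CPM in lymphoma. Without CD4 3 its change was -3.11. Asns, asparagine synthetase and a target of the stress factor ATF4, rose most (5.36, SE 1.09, edgeR adjusted p = 0.00265), from 0.240 to 1.65 CPM in CD4 to 93.9 CPM in lymphoma 53 and 5.17 to 44.8 CPM in the other lymphomas. Its change was 4.73 without lymphoma 53 and 6.498 without CD4 3. Atf4 itself changed by -0.16 (0.638). Of 9 tested elongation and termination factors, 7 were higher and none lower, with a median of 1.27. Eef2k, the kinase that inhibits the elongation factor eEF2, rose most (1.94, edgeR adjusted p = 0.000155).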

How the data were processed

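The deposited table holds raw read counts per Ensembl gene from the authors, per the file headers, with 5 summary rows named as htseq-count writes them, which entered neither library sizes nor tests (reads in no feature were 16.6 to 22.5% in lymphoma and 30.4 to 33.3% in CD4). The submitters' processing notes name FastQC, HISAT2, SAMtools, HTSeq and the builds mm10 and GRCm38. The versions, annotation and strand setting are not given in the sources used here. The number of columns matching no sample was 0.

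Counts were tested with edgeR 4.0.16 (R 4.3.3): filterByExpr with a minimum count of 10, TMM scaling, glmQLFit (robust) and glmQLFTest over all 9 libraries with no covariate, and Benjamini-Hochberg adjustment over 15401 genes. Fold changes are lymphoma over CD4. SE is the absolute log2 fold change over the root of F, and 95% intervals use the fit's degrees of freedom. Ratios were tested by exact permutation (scipy 1.17.1). The fit was checked on counts drawn with known changes. Alternatives used limma 3.58.1 and DESeq2 1.42.0 among others. Positions and exon overlaps are from GENCODE M21 (GRCm38). Values are given by sample (each CD4 library, and the lowest, median and highest lymphoma) for core factors and the largest changes of each group, and for each pathway list its largest rise and fall are named. Members and lists were chosen with earlier results of these data known. The floor, by which a count of 0 allows up to 3 counts, covers counting error alone, and reads are not independent molecules. The 95% intervals also hold the spread between libraries.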

Additional observations from a re-analysis of the deposited data

Results flagged for a closer look

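Among the 6 lymphomas, 52 results (48 genes and 4 ratios) were examined with Dixon's ratio, the gap between an end library and the next one as a share of the range. A ratio above 0.625, the 95% critical value, was found for 8, where chance gives about 1 in 20, or 2.6, if results were independent, which genes of 1 library are not. Of the 48 genes 14.6% passed on the CPM scale, against 16.8% of all 15401 tested genes, and 12.5% against 11.8% through lymphoma 53. These shares are close to each other. Of the 8, 7 concern lymphoma 53, as the highest library on the scale used. Lymphoma 53 had 202 CPM of Eif2b2 (others 83.8 to 95.02), 187 CPM of Eif2b5 (others 89.6 to 106), 465 CPM of Eif3d (others 148 to 239) and 693 CPM of Eif3e (others 373 to 491). It also had 960 CPM of Eif3h (others 361 to 483), 447 CPM of Eif3l (others 144 to 224) and a log2 ratio of Eif4ebp1 to Eif4ebp2 of 1.95 (others -2.77 to -2.05). Lymphoma 86 had 391 CPM of Eif1 (others 261 to 308). The side depends on the scale. On log2(CPM + 0.5), a scale chosen after seeing the data, 6 genes passed, all through lymphoma 53: Eif2b2, Eif2b5 and Eif3h as the highest, and Eif4ebp2, Eif4g3 and Eif5a2 as the lowest.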

How the results depend on the processing

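In the fits that left out 1 library, 33 to 41 of the genes were higher (lowest without CD4 2, highest without lymphoma 53). Over all tested genes the share was 19.6% without CD4 2 and 27.7% without lymphoma 53. With the 2-fold rule 24 were higher, against 17.9% of all tested genes, and 14 genes lost their call through that rule's own construction. Over all 19 alternatives Eif4a2 stayed the 1 gene called lower, where 14.4 to 25.9% of all tested genes were lower. Of the genes called higher, 24 of 38 kept their call throughout, the same 24 that passed the 2-fold rule. Eif1b, Eif3a, Eif3e, Eif3k, Eif3m, Eif4e2, Eif4g1 and Eif4g2 lost it only under that rule. The alternatives counted for Eif2a, Eif3f, Eif3h, Eif3j1 and Eif5 include that rule and a stricter adjusted p of 0.01. RLE and upper quartile scaling each left 33 higher, where 23.3% and 22.2% of all tested genes were higher. Upper quartile scaling shifted the median of all genes by -0.10, and the unfiltered table shifted it by 0.16. Signs reversed for 2 genes without a call: Eif1 (-0.43 to 0.34 over the fits without 1 library, above 0 without CD4 3) and Eif4g3 (0.0262 with no filter, and -0.085 to 0.11 over the fits without 1 library). The cause was not tested. Leaving out 1 library gave 1.68 to 2.06 for the log2 ratio of Eif4a1 to Eif4a2, 2.43 to 3.55 for Eif4ebp1 to Eif4ebp2, -2.46 to -1.34 for Eif4e to Eif4ebp1 and -0.033 to 0.19 for Eif4g1 to Eif4g2. The first 3 no longer passed without any 1 CD4 library, where the smallest exact p is 0.0714. No paired analysis was possible because the groups share no replicate numbers.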
